A study of Mus musculus with 10 samples.

Results

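The genes described here are the potassium channel genes of the mouse left ventricle, taken as every entry of the deposited expression table whose symbol starts with Kcn and holds no comma. There were 95 such entries among 23303, and 57 of them had a mean of at least 0.1 FPKM over all 10 libraries and were tested. FPKM divides the fragments assigned to a gene by its transcript length and by the library's total, so levels of different genes can be set side by side. The samples were left ventricles of male 129X1/SvJ mice, 5 with the surgery label CKD (chronic kidney disease) and 5 labelled Sham, each sequenced as its own library. The labels gave neither the surgical procedure, nor the age or time after surgery. The study is about uremic cardiomyopathy, a disorder of heart muscle in patients whose kidneys fail, and the question was how CKD changes the ventricle relative to Sham. All p-values below rest on the spread between mice.

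Potassium channels carry the outward currents that end the cardiac action potential and hold the resting membrane potential of heart muscle. Voltage-gated channels assemble from alpha subunits, which form the pore, together with auxiliary subunits that set their surface level and kinetics. Electrically silent alpha subunits form no channel alone and modify those of the Kv2 type. Inward rectifiers and two-pore channels act near rest, and in rodent ventricle a fast transient outward current of the Kv4 type dominates early repolarisation.

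The 95 genes comprised 30 voltage-gated alpha subunits, 10 silent modifier subunits, 15 inward rectifiers, 14 two-pore channels, 8 calcium- or sodium-activated channels, 16 auxiliary subunits and 2 other entries, Kcnq1ot1 and Kcnrg. Of the 38 genes that were not tested, 12 were listed at 0 in all libraries. The gene just inside the limit was Kcnq5, with a mean of 0.103 FPKM, and those just outside were Kcng4 at 0.0918 and Kcna3 at 0.0913. The 57 tested genes split into 27 with a mean of at least 1 FPKM and 30 below it. Values of the second set were noisier: the median coefficient of variation among Sham mice was 36.2%, against 12.1% in the first. Of the low genes, Kcnd1, Kcnj6 and Kcnk7 were listed at 0 in at least 1 library.

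In Sham ventricle the potassium channel transcripts were dominated by few genes. Kcnip2, which encodes KChIP2, the auxiliary subunit of Kv4 channels, was highest at 128 ± 8.21 FPKM (SD, n = 5). It was followed by Kcnk3, the two-pore leak channel TASK-1, at 86.6 ± 5.83, Kcng2, a silent modifier subunit, at 68.7 ± 8.50, and Kcnj11, the pore of the ATP-sensitive channel, at 50.3 ± 1.72 FPKM. Together these 4 genes held 58.6% of the summed FPKM of all 95. Inward rectifiers made up 26.7% of the summed FPKM over all 10 libraries, auxiliary subunits 25.1%, voltage-gated alpha subunits 17.5%, two-pore channels 15.9%, silent modifiers 12.5%, and calcium- or sodium-activated channels 2.21%.

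**Figure D1:**
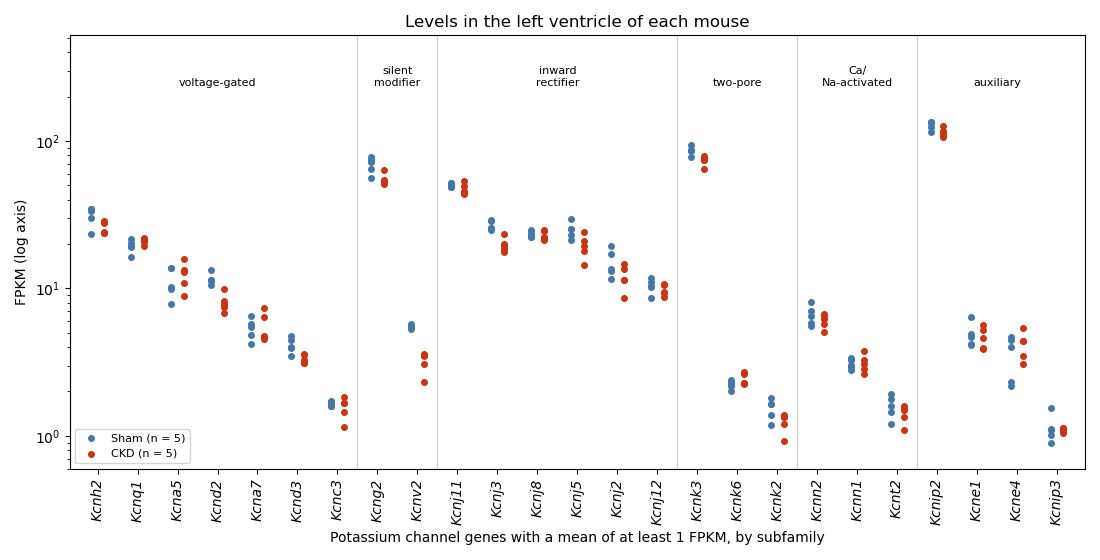
FPKM of 25 of the 27 potassium channel genes with a mean of at least 1 FPKM in each mouse, on a log axis, grouped by subfamily (5 Sham in blue, 5 CKD in red). Kcnip2, Kcnk3, Kcng2 and Kcnj11 are the highest, and the CKD points of Kcnv2, Kcnj3 and Kcnd2 all lie below the Sham points.

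At an adjusted p under 0.05 by limma, 3 potassium channel genes fell in CKD and 0 rose: Kcnv2, Kcnj3 and Kcnd2. They are 5.26% of the 57 tested, beside 4.44% of all 14557 tested genes called in either direction, 1.69% called lower and 2.75% called higher. The share called in either direction is therefore near the background. The share called lower is above its own background, but is a count of 3 genes. At an unadjusted p under 0.05, 11 of the 57 were lower (19.3%, background 8.19%) and 2 were higher (3.51%, background 10.5%). All 5 CKD mice lay below all 5 Sham mice for 4 of the tested genes (7.02%, background 2.76%), and lay above them for none (background 3.99%). A negative change was found for 32 of the 57, beside 50.2% of all tested genes, and the median of the 57 was -0.05 on the log2 scale, with the median of all tested genes at -0.00062.

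Directions are given by the level of the gene, as a description. Of the 27 genes with a mean of at least 1 FPKM, 21 had a negative change (77.8%) and the median was -0.12 (log2). Among all 11651 genes at that level, 51.1% had a negative change. Of the 30 genes below 1 FPKM, 11 were negative and 19 positive, with a median of 0.04 and a range from -0.16 to 0.54. None of the 30 passed. Among all 2906 genes at that level, 1350 were negative, the median was 0.02, and 20 were called lower and 53 higher, so a count of 0 among 30 is close to the background. Changes are on the log2(FPKM + 0.5) scale, which understates them for such low genes.

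**Figure D2:**
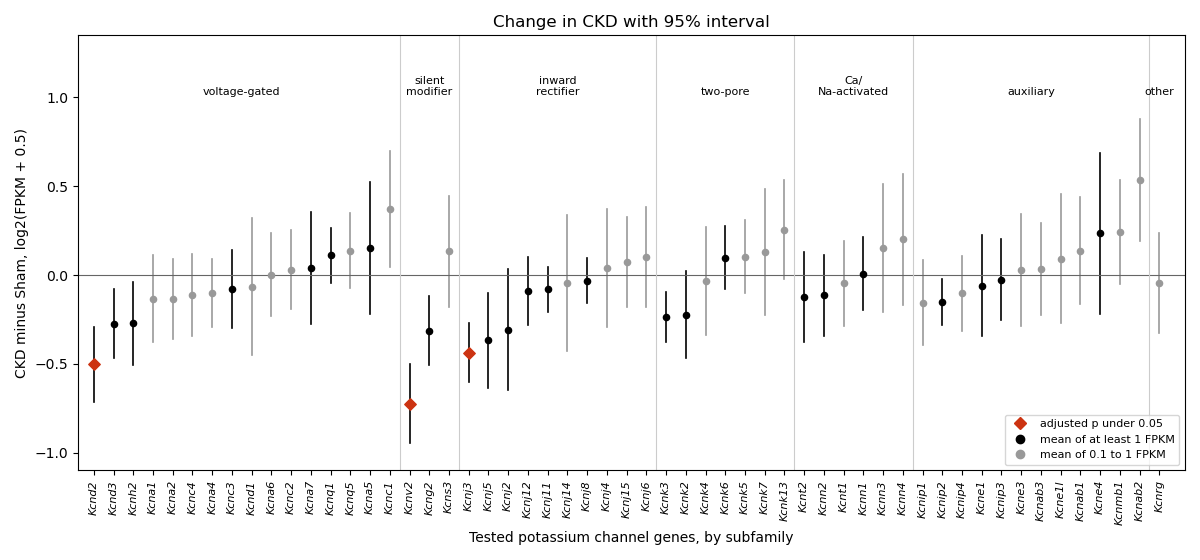
Change of 55 of the 57 tested potassium channel genes in CKD relative to Sham on the log2(FPKM + 0.5) scale, with 95% intervals from the limma fit, ordered within subfamily. Kcnd2 (-0.50), Kcnv2 (-0.72) and Kcnj3 (-0.44), marked by red diamonds, passed; black points have a mean of at least 1 FPKM and grey points less.

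The summed FPKM of the 95 genes lay between 550.0 and 580.1 for Sham and between 481 and 522 for CKD, so the groups did not overlap. Mean sums were 569 ± 12.03 (Sham) and 499 ± 19.7 (CKD; SD over 5 mice a group), which is 12.3% lower. Kcng2, Kcnk3 and Kcnip2 accounted for -39.6 of the -69.8 FPKM between the group means (CKD minus Sham), as the sum follows the most abundant genes. None of these passed on its own. The 9 tested cardiomyocyte markers had a median change of -0.03 (log2) and 0 passed. Myh6, a further cardiomyocyte marker, was listed at 0 in all libraries, beside Myl2 at a mean of 20426 FPKM. A listed 0 therefore need not mean that a gene was not expressed. Of 7 fibroblast markers 3 rose (Col1a1, Col1a2 and Lum) and none was at 0. The summed level of the 7 was 656 to 799 FPKM in CKD and 576 to 646 in Sham. Most of it was Dcn, at means of 461 and 438 FPKM, which did not pass. Tcf21 was the only one of them with a negative change (log2 -0.13). Of 6 tested macrophage markers 5 rose, with sums of 155 to 231 FPKM in CKD and 102 to 115 in Sham. Mrc1 did not pass (log2 0.57, limma adjusted p = 0.0728), and Adgre1 of that list had no entry under this symbol. Beside these counts, 2.75% of all tested genes were called higher and 4.44% in either direction. The part of the cell type markers in the lower channel sum was not tested. In whole ventricle, fewer cells of a type and less RNA per cell cannot be told apart.

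The silent modifier subunits held the largest fall. Kcnv2 encodes Kv8.2, a silent subunit that joins Kv2 channels and alters their gating. It was at 5.49, 5.58, 5.59, 5.74 and 5.27 FPKM in Sham 1 to 5 and at 3.57, 2.31, 3.46, 3.52 and 3.06 in CKD 1 to 5. The lowest Sham mouse was well above the highest CKD mouse, and the Sham values spanned a narrow range. The means were 5.54 ± 0.174 in Sham and 3.18 ± 0.528 in CKD (SD, n = 5 each). The change was -0.72 (log2, SE 0.10, limma adjusted p = 0.00302), or 39.5% lower in FPKM + 0.5. Percents of single genes are taken from this change, and not from the ratio of the FPKM means. Kcnv2 lies on chromosome 19 from 27322061 to 27337179 in GRCm38.p6.

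Kcng2, for the silent subunit Kv6.2, was at 71.6, 77.3, 64.7, 55.9 and 73.8 FPKM in Sham 1 to 5 and at 63.7, 52.5, 53.6, 51.0 and 54.2 in CKD 1 to 5. The CKD 1 value stood above Sham 4, so the groups overlapped (log2 -0.31, SE 0.09, adjusted p = 0.0698). Kcng2 passed without CKD 1 (adjusted p = 0.0356), without Sham 4 (0.0221) and with library weights (0.0493). These mice lay nearest the other group, and leaving out another mouse gave a limma adjusted p of up to 0.153. The third tested silent subunit, Kcns3, was low, at 0.128 ± 0.0988 FPKM in Sham and 0.191 ± 0.133 in CKD.

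Among the Kv4 genes, Kcnd2 fell. It encodes Kv4.2, the main pore subunit of the fast transient outward current in mouse ventricle. Its values were 13.4, 10.6, 11.5, 11.2 and 11.4 FPKM in Sham 1 to 5 and 9.97, 7.51, 6.82, 8.17 and 7.88 in CKD 1 to 5. Every CKD mouse was below every Sham mouse, and the highest value of each group came from replicate 1. The mean went from 11.6 ± 1.06 to 8.07 ± 1.18 FPKM (log2 -0.50, SE 0.10, limma adjusted p = 0.0130), or 29.4% lower in FPKM + 0.5. Without both CKD 1 and Sham 1 the change was -0.53 (adjusted p = 0.00592). Kcnd2 lies on chromosome 6 from 21215346 to 21729805 in GRCm38.p6.

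Kcnd3, for the related subunit Kv4.3, was at 4.77, 4.49, 3.92, 4.02 and 3.48 FPKM in Sham 1 to 5 and at 3.11, 3.10, 3.26, 3.61 and 3.52 in CKD 1 to 5. Only Sham 5 lay within the CKD range, and the change did not pass (log2 -0.27, SE 0.09, adjusted p = 0.110). Kcnip2 was at 115, 134, 124, 134 and 132 FPKM in Sham 1 to 5 and at 116, 117, 110.0, 126 and 106 in CKD 1 to 5. Sham 1 and Sham 3 lay inside the CKD range, and Kcnip2 did not pass (log2 -0.15, 95% interval -0.28 to -0.02, adjusted p = 0.183). Kcna4, for the pore of the slow transient outward current, was at 0.646 ± 0.0678 FPKM in Sham and 0.572 ± 0.0812 in CKD (adjusted p = 0.614).

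Within a mouse, Kcnip2 exceeded Kcnd2 by 8.60 to 12.7 times in Sham and 11.6 to 16.1 times in CKD. These ranges overlapped. The lowest ratio of each group was that of replicate 1, and only among the other 8 mice did the CKD range, 13.5 to 16.1, lie above the Sham range, 10.8 to 12.7. Kcnd2, which fell, is the denominator, so this ratio is no result apart from that fall. The ratio of Kcnd2 to Kcnd3 was 2.83 ± 0.326 in Sham and 2.45 ± 0.444 in CKD (SD, n = 5 each), with overlapping groups. Ratios were described without a test.

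The promoter sequences of Kcnd2, of its relative Kcnd3 and of Kcnj3 are shown because the first and last are among the genes that fell and the other is the nearest relative that did not pass. They are the 250 bases before a transcript start, from RefSeq (GRCm38.p6), all on the plus strand, in lower case with motif matches in capitals. The Kcnd2 stretch is chr6:21215096-21215345, that of Kcnd3 chr3:105451640-105451889 and that of Kcnj3 chr2:55435720-55435969. For Kcnd2 and Kcnd3 the stretch ends just before the RefSeq gene span. For Kcnj3 it ends just before the GENCODE gene start at 55435970, but lies inside the RefSeq gene span, which begins upstream at 55411798, so its values describe this start and not the upstream one.
Kcnd2: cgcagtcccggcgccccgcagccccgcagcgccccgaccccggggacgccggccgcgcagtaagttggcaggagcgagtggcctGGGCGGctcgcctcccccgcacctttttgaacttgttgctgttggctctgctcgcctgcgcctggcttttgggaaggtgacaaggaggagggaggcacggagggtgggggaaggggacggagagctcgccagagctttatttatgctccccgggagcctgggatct
Kcnd3: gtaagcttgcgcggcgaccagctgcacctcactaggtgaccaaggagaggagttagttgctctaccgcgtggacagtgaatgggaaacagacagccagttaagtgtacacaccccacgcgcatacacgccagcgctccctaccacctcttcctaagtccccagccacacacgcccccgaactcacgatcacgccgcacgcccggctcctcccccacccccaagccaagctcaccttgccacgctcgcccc
Kcnj3: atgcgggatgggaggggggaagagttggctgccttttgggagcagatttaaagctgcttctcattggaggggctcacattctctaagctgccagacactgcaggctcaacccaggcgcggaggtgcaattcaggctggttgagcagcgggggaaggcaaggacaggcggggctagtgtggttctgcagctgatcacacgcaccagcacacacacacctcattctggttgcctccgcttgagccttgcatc
The motifs searched on both strands were the TATA box TATAAA, the GC box GGGCGG, the GATA motif AGATAA, the E-box CACGTG, the cyclic AMP response element TGACGTCA and the MEF2 motif. The capitals in Kcnd2 mark a GC box, from base -166 to -161 relative to the start, and no other match was found in the 3 stretches. In GENCODE, the Kcnj3 stretch overlaps 1 annotated exon and the Kcnd3 stretch 2. The genes these exons belong to were not recorded. Exons of Kcnj3 and Kcnd3 themselves are overlapped by those of Gm26794 and Kcnd3os, both noncoding and on the opposite strand. GC boxes were present in 32.7% of all 32851 promoter stretches of this length in the table, and the TATA box in 12.4%, the GATA motif in 9.99%, the E-box in 6.02%, the response element in 1.55% and the MEF2 motif in 2.92%. GC content was 68.8% for Kcnd2, 62.8% for Kcnd3 and 58.4% for Kcnj3, against a median of 52.4%, and CpG dinucleotides numbered 22, 18 and 7, against a median of 6. The table held 61 stretches for 41 of the 57 tested genes; 0 of the 61 had a TATA box and 25 (41.0%) a GC box. Kcnv2 was among the genes without an entry.

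Kcnj3 and Kcnj5 encode the subunits of the acetylcholine-activated inward rectifier (Kir3.1 and Kir3.4), which is best known from atrium and pacemaker tissue. Kcnj3 was at 29.1, 25.7, 25.7, 24.9 and 28.5 FPKM in Sham 1 to 5 and at 19.9, 17.6, 23.2, 18.5 and 19.4 in CKD 1 to 5. No CKD mouse reached the lowest Sham mouse. The mean fell from 26.8 ± 1.89 to 19.7 ± 2.15 FPKM (log2 -0.44, SE 0.08, limma adjusted p = 0.00872), or 26.1% lower. The RefSeq span of Kcnj3 is chromosome 2 from 55411798 to 55598145 in GRCm38.p6, and in the GENCODE annotation an exon of the noncoding gene Gm26794 on the opposite strand overlaps its exons. The sources used here do not say whether counting used strand, so reads of the 2 genes may not be separated.

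Kcnj5 was at 29.6, 25.2, 25.5, 21.4 and 23.1 FPKM in Sham 1 to 5 and at 19.3, 14.5, 20.8, 24.3 and 17.98 in CKD 1 to 5. CKD 4 lay within the Sham range, and the gene did not pass (log2 -0.37, SE 0.12, adjusted p = 0.121), though it did without CKD 4 (0.0492). Leaving out a different mouse gave a limma adjusted p of up to 0.227. Of 5 atrial muscle markers 1 passed, Nppa, which was higher in CKD and is also a gene of the stressed ventricle. The summed level of the 5 was 2839 to 4113 FPKM in CKD and 838 to 1822 in Sham, nearly all of it Nppa. Without Nppa, Myl7 was at 0 to 2.17 FPKM in CKD and 0.438 to 2.03 in Sham, Sln at 0 to 0.913 and 0 to 1.05, Myl4 at 3.88 to 8.56 and 4.68 to 6.86, and Nr2f2 at 2.39 to 3.90 and 2.21 to 2.92. Their part in the Kcnj3 result was not tested.

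The inward rectifiers of the resting potential did not pass. Kcnj2, for Kir2.1, was at 19.3, 13.1, 11.6, 13.6 and 17.1 FPKM in Sham 1 to 5 and 14.7, 8.61, 11.5, 13.6 and 11.3 in CKD 1 to 5. The groups overlapped widely, and the 95% interval of the change was -0.65 to 0.03 (log2 -0.31, adjusted p = 0.316). Kcnj12, for Kir2.2, was at 10.4 ± 1.17 FPKM in Sham and 9.74 ± 0.843 in CKD (adjusted p = 0.655). Kcnj4, for Kir2.3, was lower still, at 0.528 ± 0.137 and 0.565 ± 0.212 FPKM.

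The ATP-sensitive channels link membrane potential to energy state and pair a Kir6 pore with a sulfonylurea receptor. The pore genes showed small differences: Kcnj11 was at 48.6 to 52.1 FPKM in Sham and 44.0 to 53.8 in CKD (log2 -0.08, 95% interval -0.21 to 0.05, adjusted p = 0.513). Kcnj8, the vascular and mural cell form, was at 22.4 to 24.7 and 21.3 to 24.7 FPKM (log2 -0.03, 95% interval -0.16 to 0.09, adjusted p = 0.831). Abcc8 and Abcc9, the receptor genes, lie beside Kcnj11 on chromosome 7 and beside Kcnj8 on chromosome 6. Abcc9 was at 113, 105, 104, 111 and 89.5 FPKM in Sham 1 to 5 and at 91.4, 84.8, 83.4, 92.2 and 95.6 in CKD 1 to 5. Only Sham 5 was inside the CKD range (log2 -0.22, adjusted p = 0.0848), and the gene passed without it (0.0186). Other single omissions gave a limma adjusted p of up to 0.187 for Abcc9. Abcc8 was at 13.0 ± 0.356 and 11.9 ± 1.05 FPKM in Sham and CKD (adjusted p = 0.362). Kcnj11 exceeded Kcnj8 by 2.14 ± 0.131 times in Sham and 2.07 ± 0.129 in CKD, and Abcc9 exceeded Kcnj11 by 2.08 ± 0.167 and 1.89 ± 0.170 times, with overlapping groups for both ratios.

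**Figure D3:**
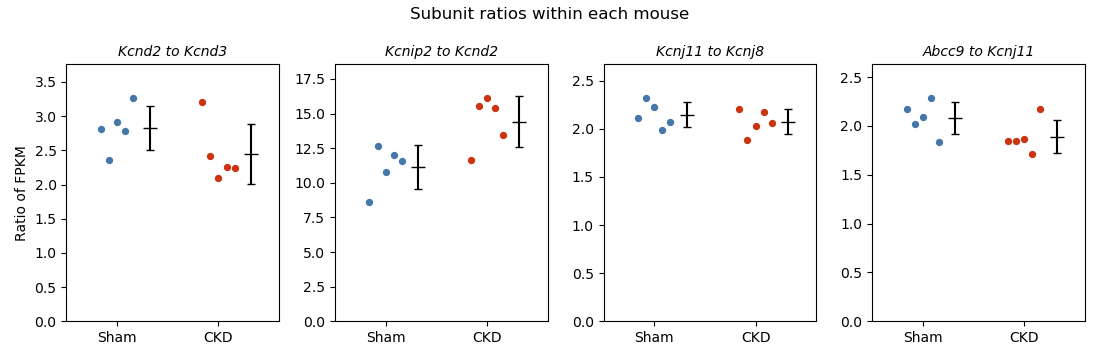
Ratios of FPKM between subunit genes, 1 point per mouse, with bars for group mean and SD; the y axes start at 0. The ratio of Kcnip2 to Kcnd2 averaged 11.1 in Sham and 14.4 in CKD, and the groups overlap in all 4 panels.

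Of the 18 voltage-gated alpha genes tested, Kcnd2 was the only member that passed, beside 4.44% of all tested genes called in either direction. Kcnh2, for the pore of the rapid delayed rectifier, was at 34.8, 34.8, 29.8, 23.3 and 33.3 FPKM in Sham 1 to 5 and 23.6, 23.7, 27.7, 28.6 and 24.2 in CKD 1 to 5. Sham 4 was below every CKD mouse, and the gene did not pass (log2 -0.27, adjusted p = 0.194) except without Sham 4 (0.0298). With another mouse left out, its limma adjusted p was up to 0.344. The slow delayed rectifier pair differed little: Kcnq1, its pore, was at 19.3 ± 1.93 FPKM in Sham and 20.9 ± 0.948 in CKD (95% interval -0.04 to 0.27), and Kcne1, its auxiliary subunit, at 4.88 ± 0.911 and 4.65 ± 0.781 (-0.34 to 0.22). Kcna5, for Kv1.5 of the ultrarapid component, was at 7.80 to 13.7 FPKM in Sham and 8.91 to 15.8 in CKD (log2 0.15, adjusted p = 0.705). Kcnc1, for Kv3.1, had positive change, from 0.457 ± 0.165 to 0.740 ± 0.217 FPKM (log2 0.37, adjusted p = 0.202).

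Kcnq1ot1, a long noncoding RNA transcribed against Kcnq1, was below the limit for testing. It was nonetheless above 0 in every library, at 0.0808, 0.0675, 0.0755, 0.0747 and 0.0576 FPKM in Sham 1 to 5 and 0.0491, 0.0448, 0.05, 0.0491 and 0.0394 in CKD 1 to 5. All CKD values were below all Sham values, as for 2.76% of all tested genes. In GENCODE its exons overlap those of Kcnq1 on the opposite strand, which was at a mean of 20.1 FPKM. Reads of Kcnq1 may therefore be part of these low values. In the fit without a filter its change was -0.06 (log2, adjusted p = 0.329), a scale on which values this far under 0.5 hardly move, and 0 of the 26 untested genes in that fit passed; the other 12 were those listed at 0. The remaining entry, Kcnrg, was at 0.348 ± 0.141 FPKM in Sham and 0.316 ± 0.0907 in CKD (adjusted p = 0.902).

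Two-pore channels gave no call among 7 tested, beside 4.44% of all tested genes called, so the count says little about this subfamily. Kcnk3 was at 85.9, 87.3, 94.5, 87.4 and 78.1 FPKM in Sham 1 to 5 and at 73.9, 78.7, 64.3, 76.3 and 74.7 in CKD 1 to 5. CKD 2 and Sham 5 crossed by a small margin, and the change narrowly missed the threshold (log2 -0.23, SE 0.06, adjusted p = 0.0607). It passed without Sham 5 and with library weights (adjusted p = 0.0368 in each). When another mouse was left out, the limma adjusted p was up to 0.142. Kcnk3 exons overlap those of Gm9899 on the opposite strand, which was itself at a mean of 5.61 FPKM. Kcnk2, the stretch-gated TREK-1, was at 1.53 ± 0.243 and 1.24 ± 0.188 FPKM in Sham and CKD (adjusted p = 0.312), and Kcnk6 at 2.23 ± 0.137 and 2.43 ± 0.230 (adjusted p = 0.586).

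Calcium- or sodium-activated channels gave no call among 6 tested, which is close to the background of 4.44% of all tested genes. Kcnn2, a small-conductance channel of heart, was at 6.60 ± 0.981 FPKM in Sham and 6.04 ± 0.638 in CKD (95% interval -0.34 to 0.11). Kcnn1 was at 3.08 ± 0.235 and 3.11 ± 0.430 FPKM (-0.20 to 0.21) and the sodium-activated Kcnt2 at 1.59 ± 0.279 and 1.41 ± 0.2002 (-0.38 to 0.13). Kcnma1, the pore of the large-conductance channel, was at 0.0302 ± 0.0218 FPKM in Sham and 0.0294 ± 0.0315 in CKD and was not tested.

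Auxiliary subunits gave no call among 12 tested, also close to the background of 4.44% of all tested genes. Kcnab2, for the cytoplasmic Kv beta 2 subunit, was at 0.590, 0.428, 0.538, 0.676 and 0.778 FPKM in Sham 1 to 5 and at 1.43, 1.16, 0.681, 0.824 and 1.52 in CKD 1 to 5. Only CKD 3 fell within the Sham range (log2 0.54, SE 0.16, adjusted p = 0.0778), and the gene passed without it (0.0414). Omitting a different mouse gave a limma adjusted p of up to 0.164. The macrophage markers given above moved with the groups, and none was at 0. Kcnn4 and Kcnk13, channel genes found in immune cells, were at 0.202 ± 0.112 and 0.232 ± 0.0961 FPKM in Sham and 0.318 ± 0.185 and 0.375 ± 0.123 in CKD, and did not pass. Kcna3, also found in immune cells, went the other way, at 0.126 ± 0.0869 FPKM in Sham and 0.0563 ± 0.0165 in CKD. It lay below the limit for testing. The 6 T cell markers had a median change of -0.21 (log2), and 0 passed. Their sums were low, at 1.13 to 3.45 FPKM in Sham and 1.19 to 1.55 in CKD. The part of the macrophage or T cell markers in these values was not tested. Kcne4 was at 2.17 to 4.66 FPKM in Sham and 3.05 to 5.41 in CKD, and Kcnmb1, the smooth muscle subunit of the large-conductance channel, at 0.354 to 0.697 and 0.416 to 0.821. Smooth muscle and pericyte markers had 0 of 8 past the threshold, with a median change of 0.22 (log2). Acta2 alone was negative (log2 -0.26), and the others were positive.

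**Figure D4:**
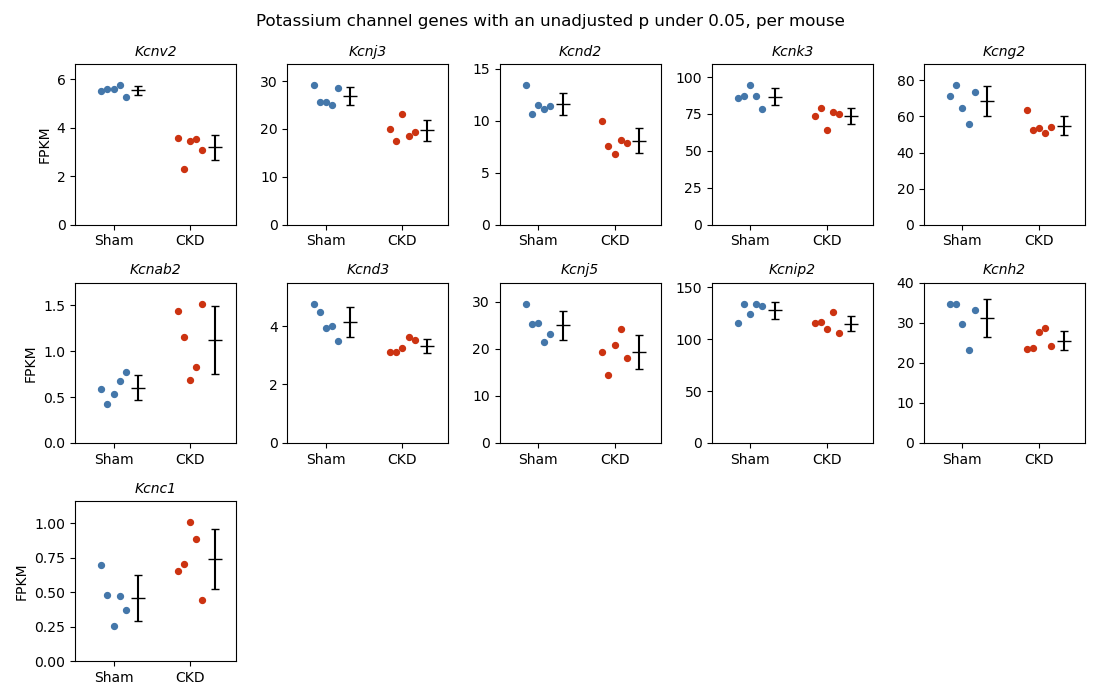
FPKM in each mouse for 11 of the 13 potassium channel genes with an unadjusted p under 0.05 as points (Sham and CKD, 5 each); bars show group mean and SD, and y axes start at 0. The CKD mean is lower in 9 panels, and higher for Kcnab2 and Kcnc1.

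A list of 23 genes for partners, scaffolds and regulators of these channels had 19 tested members, of which 1 fell and 0 rose. This is 5.26% of the 19, beside backgrounds of 4.44% called in either direction and 1.69% called lower, and it is a count of 1 gene. Lrrc38, a gamma subunit of the large-conductance channel, was at 0.580, 0.845, 1.09, 0.476 and 0.666 FPKM in Sham 1 to 5 and at 0.153, 0.317, 0.211, 0.206 and 0.133 in CKD 1 to 5. The groups did not overlap, and the mean went from 0.733 ± 0.243 to 0.204 ± 0.0715 FPKM (log2 -0.79, SE 0.14, limma adjusted p = 0.00762). The size depends on the pseudocount, being -1.44 with 0.1 and -0.52 with 1. Its pore partner Kcnma1 was almost undetected, as given above. The 19 had a median change of -0.08 (log2), 13 were negative, and 10 had an unadjusted p under 0.05, 6 lower and 4 higher (background 18.7% in either direction, 8.19% lower and 10.5% higher). Irx5, a repressor that shapes the Kcnd2 gradient across the ventricular wall, was at 3.44 ± 0.635 FPKM in Sham and 2.64 ± 0.385 in CKD (log2 -0.32, adjusted p = 0.175). Dpp6, a Kv4 partner, was at most 0.103 FPKM in any mouse. The pacemaker channel gene Hcn4 was at 2.00 ± 0.517 and 1.83 ± 0.124 FPKM (adjusted p = 0.843).

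The shift of the abundant genes was also described mouse by mouse. For the 27 genes with a mean of at least 1 FPKM, the median deviation from the Sham mean was -0.06 in CKD 1, -0.13 in CKD 2, -0.19 in CKD 3, -0.08 in CKD 4 and -0.21 in CKD 5 (log2), against -0.04 to 0.04 in the Sham mice. All 5 CKD mice lay below the Sham range, with CKD 1 nearest to it. The Sham mice set the mean they were measured against, so their narrow range around 0 is partly built in. The separation was not tested. CKD 1 and Sham 1 differed from the other 8 libraries in how FPKM was spread over genes: the 10 most abundant took 14.8% and 15.3% of their summed FPKM, against 17.6% to 18.2%. Their low values also moved in other steps, as given under processing. Whether this lies in the RNA or in how FPKM was computed was not tested. Without both CKD 1 and Sham 1, Kcnv2 (log2 -0.77, limma adjusted p = 0.00993), Kcnj3 (-0.41, 0.0318) and Kcnd2 remained the genes that passed.

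**Figure D5:**
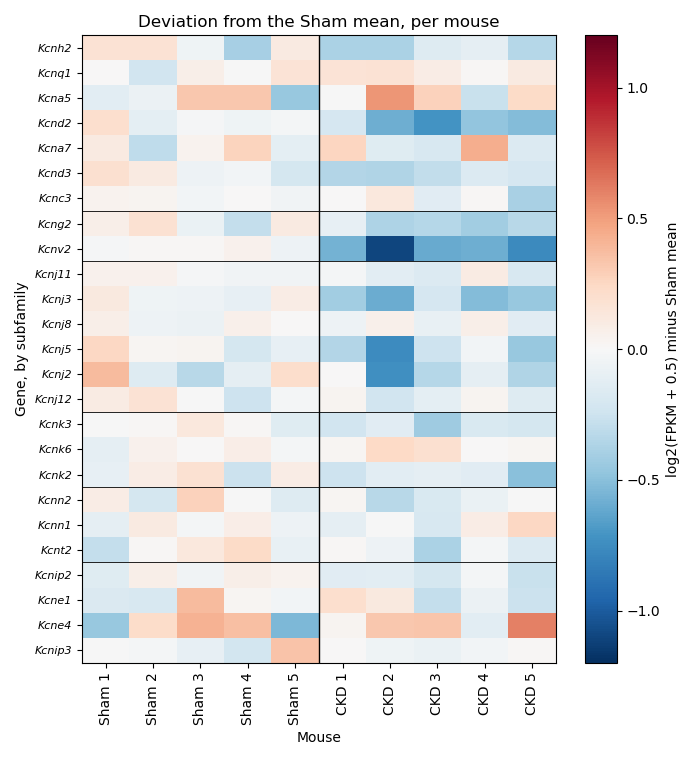
Deviation of log2(FPKM + 0.5) from the Sham mean for each mouse (columns; 5 Sham then 5 CKD) and each potassium channel gene with a mean of at least 1 FPKM (25 of 27, by subfamily), blue lower and red higher. Kcnv2, Kcnd2 and Kcnj3 are blue in all 5 CKD columns, and Kcnv2 in CKD 2 is the deepest at 1.10 below the Sham mean.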

How the data were processed

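Left ventricles of 5 CKD and 5 Sham mice were compared, grouped by the labels' surgery entry; replicates are numbered within a group only to name them. The values the authors deposited are FPKM. The submitters' processing notes list Cuffdiff 2.1.1, Cufflinks 2.1.1 and STAR 2.4.0f1 with no roles, and the builds mm10 and hg19, also without roles. Read depth is unknown. Values of genes at or below 0.2 FPKM move in steps: in 7 libraries 28.6% to 34.3% of such genes shared a single ratio to Sham 2, giving relative depths of 0.901 to 1.14, but in CKD 1 and Sham 1 only 2.3% and 2.8% did, so no depth is given for these.

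Values were analysed as log2(FPKM + 0.5). Genes with a mean of at least 0.1 FPKM (14557) entered a limma 3.58.1 fit in R 4.3.3 (lmFit; eBayes, trend in the variance), tested on both sides; adjustment was by Benjamini-Hochberg over all these genes, and the threshold was 0.05. The method was also run on simulated data, with independent normal noise for each gene and no differences between libraries. Such data cannot show how it deals with features such as those of CKD 1 and Sham 1. The members and lists were chosen with earlier results of these data known, so lists are described by counts and medians. Genes named are those with an unadjusted p under 0.05, the 3 highest of each subfamily, and a list of 20 cardiac current genes; of 23 partner genes, those called and 5 more (Abcc8, Abcc9, Dpp6, Irx5, Hcn4). Kcnj4, Kcnn4 and Kcnk13, the genes at the limit for testing, and genes listed at 0 were named after their values were seen. All 95 symbols matched RefSeq (GRCm38.p6); overlaps are from GENCODE M21. Of the genes this rule takes, 2 are not reported here by name or drawn, but are included in all counts. The alternatives were other pseudocounts, filters, scalings, variance models, weights and a threshold of 0.10, and leaving out libraries.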

Additional observations from a re-analysis of the deposited data

Results flagged for a closer look

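Among 70 groups of 5 mice examined (each named gene in CKD and in Sham), 2 held a mouse whose gap to the nearest other exceeded Dixon's 95% limit; chance flags about 1 in 20 groups. Kcng2 in CKD 1 was at 63.7 FPKM, with the other CKD mice at 51.0 to 54.2. Kcns3 in CKD 5 was at 0.423 FPKM, with the other CKD mice at 0.0841 to 0.168.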

How the results depend on the processing

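Kcnv2, Kcnj3 and Kcnd2 stayed lower and past the threshold in all 20 alternative fits at the 0.05 threshold: Kcnv2 from -0.80 to -0.63 (log2), Kcnj3 from -0.50 to -0.40 and Kcnd2 from -0.58 to -0.45, with highest adjusted p of 0.0121, 0.0318 and 0.0401. Lrrc38 passed in the 19 fits that held it, at -1.44 with a pseudocount of 0.1 and -0.52 with a pseudocount of 1; a filter at a mean of 1 FPKM leaves it out, so that 0 partner genes were lower. The number of potassium channel genes called lower was 5 with library weights and 6 at a threshold of 0.10, and 3 to 5 when 1 library was left out; the number called higher was 1 at 0.10 and 0 to 1 without 1 library. Partner genes called higher numbered 1 with no filter, 2 with library weights and 3 at 0.10, and those called lower 2 with weights and 2 at 0.10; without 1 library they were 0 to 1 and 1 to 2. The median change of the channel genes moved from -0.0461 to -0.0759 with a pseudocount of 0.1, -0.124 with the filter at 1 FPKM and -0.0183 with weights, and lay between -0.0573 and -0.0136 without 1 library, the last without Sham 1. Over all tested genes, 720 were higher and 471 lower at 0.10, and without 1 library 219 to 433 were higher and 121 to 275 lower, over 1.5 times fewer in 1 or both directions without CKD 2, CKD 3, CKD 5, Sham 2, Sham 3 or Sham 4. Signs changed for 3 genes near 0: Kcnn1 (-0.0156 under quantile normalization, -0.0137 with weights, -0.0516 to 0.0572 without 1 library), Kcnrg (0.0264 without both CKD 1 and Sham 1, -0.107 to 0.0295 without 1 library) and Kcne1 (-0.124 to 0.0350 without 1 library). No paired analysis was possible because the labels carry no number shared between the groups. The fit uses 5 mice a group, and depth could not be recovered for CKD 1 and Sham 1.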
